A study of Mus musculus with 12 samples.

Results

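Trimethylation of lysine 27 of histone H3 (H3K27me3) was compared between lincRNA-p21 knockout and wild-type mouse fibroblasts after doxorubicin, as domains built from the peak lists of 2 chromatin immunoprecipitation sequencing (ChIP-seq) libraries, among 12 samples in the series. Peaks of a list lying less than 3 kb apart were joined into 1 domain, which gave 10193 domains in the knockout and 10286 in the wild type, of 96686 in the 8 peak lists of the series built the same way. The cells were primary mouse embryonic fibroblasts of a hybrid 129 and B6 background, with the genotype lincRNA-p21-/- (KO) or lincRNA-p21+/+ (WT), treated for 24 h with doxorubicin, whose dose the labels give as 0.5 mM (whether this unit is a slip for micromolar could not be settled). KO and WT fibroblasts of the mock treatment, with 1 H3K27me3 library each, are given beside them. The lists of trimethylated lysine 4 of histone H3 (H3K4me3) from the same 4 conditions were used as a second readout. How many embryos gave each culture is not stated in the labels. Every condition had 1 library of each mark, so no difference was tested, no spread between cultures is known, and all values describe these libraries. Read depth is unknown, since the lists hold no read counts. For the same reason the deletion of lincRNA-p21 was not checked in the libraries.

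H3K27me3 is written by Polycomb repressive complex 2, whose catalytic subunit is EZH2 or EZH1, and is bound by Polycomb repressive complex 1. In fibroblasts the mark is known to lie in broad stretches over silent developmental regulators such as the Hox genes, and in short stretches at many promoters rich in the dinucleotide CG. Promoters that carry H3K27me3 together with H3K4me3, the mark of active or poised promoters, are called bivalent. Doxorubicin damages DNA and activates the transcription factor p53. lincRNA-p21, a noncoding transcript under p53 control, is transcribed close to Cdkn1a, the gene of the cell cycle inhibitor p21.

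Some of the long domains lay at loci known as Polycomb targets, among them Hox clusters, and others were given no gene name. Coordinates below are those of build mm9, as in the deposited lists. Gene names at mm9 positions are general knowledge and were not read from an annotation, and the named loci were chosen after their values were seen. To show sequence at loci with H3K27me3 domains in both lists, the windows from 250 bases before to 50 bases after the RefSeq start (build GRCm38.p6) are printed for Hoxd13, at one end of the HoxD cluster on chromosome 2, for Sox14 on chromosome 9 and for Foxb2 on chromosome 19. Each of them has 1 entry in that table. Pax2 has 3, and its first is given below by its count only. Each runs 5′ to 3′ on the gene's strand, plus for Hoxd13 and minus for Sox14 and Foxb2, and capitals mark the dinucleotide CG, which reads the same on both strands.
Hoxd13: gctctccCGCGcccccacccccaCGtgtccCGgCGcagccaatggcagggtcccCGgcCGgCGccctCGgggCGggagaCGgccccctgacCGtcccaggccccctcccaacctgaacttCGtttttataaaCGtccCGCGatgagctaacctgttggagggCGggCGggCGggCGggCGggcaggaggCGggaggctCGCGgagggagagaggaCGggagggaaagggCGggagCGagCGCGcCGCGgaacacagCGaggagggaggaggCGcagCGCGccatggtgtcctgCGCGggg
Sox14: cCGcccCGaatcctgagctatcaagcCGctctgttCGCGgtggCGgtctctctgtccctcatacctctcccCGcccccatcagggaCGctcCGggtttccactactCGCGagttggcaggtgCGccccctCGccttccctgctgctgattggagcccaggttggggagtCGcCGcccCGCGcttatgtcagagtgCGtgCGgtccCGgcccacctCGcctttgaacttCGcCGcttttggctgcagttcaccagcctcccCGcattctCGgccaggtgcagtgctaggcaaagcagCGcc
Foxb2: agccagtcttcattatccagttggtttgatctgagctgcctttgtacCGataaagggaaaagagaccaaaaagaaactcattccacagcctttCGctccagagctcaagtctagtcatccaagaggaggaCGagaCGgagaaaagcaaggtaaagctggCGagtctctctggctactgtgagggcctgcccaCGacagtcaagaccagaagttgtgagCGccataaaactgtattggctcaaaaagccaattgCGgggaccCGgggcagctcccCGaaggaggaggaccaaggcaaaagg
The Hoxd13 window held 37 CG, a number reached by 5.58% of the 32851 mouse windows of the same length. Sox14 had 26 (reached by 16.9%) and Foxb2 had 10 (reached by 43.5%), against a median of 7 over all windows. The first Pax2 entry held 7 CG, a number reached by 52.1% of all windows, so these loci did not share a high CG count in this window. Hoxd13 encodes a homeobox factor of the limb and posterior body. Sox14 encodes an HMG-box factor of the nervous system, and Foxb2 a forkhead factor. A CG count is a description of the window and says nothing of the factors bound there.

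The KO doxorubicin list held 17828 peaks covering 35.9 Mb, and the WT doxorubicin list held 17517 peaks covering 39.0 Mb. KO domains had a median length of 1986 bp and a longest of 93.5 kb, and WT domains a median of 2142 bp and a longest of 83.5 kb. Domains of more than 1 peak made up 37.0% of the KO list and 35.8% of the WT list. At 10 kb or more there were 869 domains in KO and 992 in WT, which held 40.1% and 42.0% of the length spanned by all domains of their list. The joining distance touched few pairs of peaks at its edge. Gaps in the last 100 bp under the limit, just joined, numbered 79 in KO and 97 in WT, and gaps in the first 100 bp above it, just not joined, numbered 72 in KO and 68 in WT. The median joined gap was 503 bp in KO and 577 bp in WT.

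Most domains were present in both lists, and those found in 1 list only were mostly short and low-scoring. Domains without an overlapping base in the other list numbered 3346 in KO, 32.8% of the KO domains (exact 95% binomial interval 31.9% to 33.8%), and 3528 in WT, 34.3% of the WT domains (33.4% to 35.2%). These intervals cover counting error over domains only. KO-only domains had a median length of 1042 bp and WT-only domains one of 1172 bp, while shared domains had medians of 3350 bp in KO and 3632 bp in WT. A single peak made up 90.02% of the KO-only and 89.8% of the WT-only domains, against 49.9% of the shared KO domains and 50.9% of the shared WT domains. In covered length, KO-only domains held 4.14 Mb, 11.5% of the KO total, and WT-only domains 4.89 Mb, 12.5% of the WT total. Another domain of the opposite list lay within 5 kb of 1074 KO-only domains (32.1%) and of 1078 WT-only domains (30.6%).

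The authors' peak score, given on a scale of minus 10 times the log10 of the p-value, ranks peaks within a list, and the score of a domain is that of its highest peak. In the lowest class, from 80 to under 100, 69.2% of the KO domains and 72.0% of the WT domains were found in 1 list only. From 100 to under 150 the shares were 49.9% in KO and 53.03% in WT, and from 150 to under 200 they were 26.4% in KO and 31.0% in WT. Domains from 200 to under 300 had shares of 13.7% in KO and 13.2% in WT, and those from 300 to under 500 had 2.41% in KO and 2.62% in WT. At 500 or more, 2 of 1883 KO domains were KO-only (0.106%) and 0 of 1864 WT domains were WT-only, which allows a share of up to 0.198% at the upper end of the exact 95% interval. The share was lower in each higher class of score in both lists. A domain joined from more peaks takes the highest of more scores and is also longer. The part of length in the order by score was not tested.

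**Figure D1:**
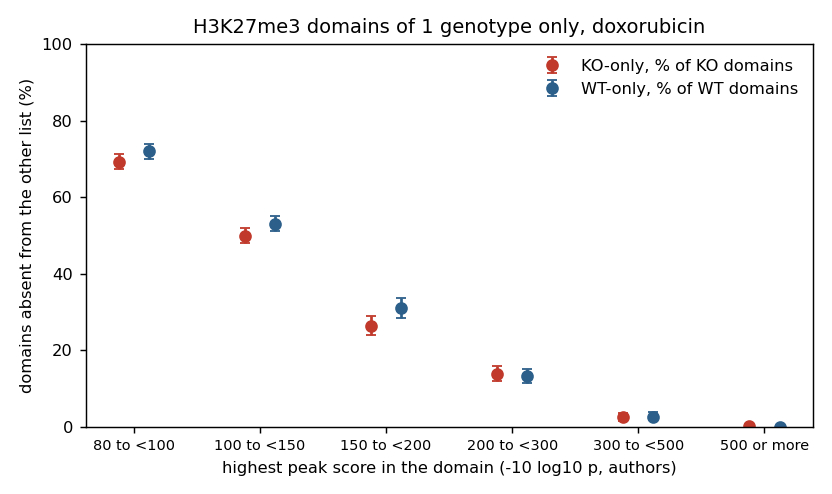
Share of doxorubicin H3K27me3 domains absent from the other genotype's list (vertical axis, %) by the highest peak score in the domain (horizontal axis, the authors' scale), KO in red and WT in blue, with exact 95% binomial bars that cover counting error only. The share was 69.2% in KO and 72.0% in WT in the lowest class and 0.106% in KO and 0% in WT in the highest.

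Length gave the same order. Under 1 kb, 69.9% of the KO domains and 75.9% of the WT domains were in 1 list only, and from 1 to under 2 kb 49.2% in KO and 55.8% in WT. From 2 to under 5 kb the shares were 12.6% in KO and 15.5% in WT, and from 5 to under 10 kb 3.57% in KO and 5.42% in WT. At 10 kb or more, 2 KO domains (0.230%) and 0 WT domains had no counterpart. A longer domain meets the rule of a 1-bp overlap more easily, so the rule itself favours this order. How much of the order the rule accounts for was not tested.

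Both long KO-only domains were neighbours on chromosome 7, and they were also the KO-only domains with the highest scores. The first ran from 89667391 to 89681953, a length of 14.6 kb, with 11.2 kb in 6 peaks and a top score of 797.63. The second ran from 89685336 to 89697580, a length of 12.2 kb, with 9.24 kb in 4 peaks and a top score of 539.81. They lay 3382 bp apart, so that a slightly larger joining distance would have made them 1 domain of 30.2 kb. No WT doxorubicin peak fell in this stretch, and the nearest WT doxorubicin domain was 80824 bp away. Among mock libraries, KO had 1 H3K27me3 peak there, of 1.21 kb and score 120.22, and WT had 0. No H3K4me3 peak of the 4 conditions fell in it.

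The next KO-only domains by score were shorter. One on chromosome 12 from 40858890 to 40861486 (2.60 kb, score 469.83) ended 49 bp from a WT doxorubicin domain, and so counted as KO-only by the choice of a 1-bp overlap. One on chromosome 3 from 67318711 to 67322824 (score 396.43) had 3.76 kb in KO and none in WT after doxorubicin, while mock cells had 1.98 kb in KO and 3.55 kb in WT. The other two were both on chromosome 6, from 86746296 to 86749752 with score 386.35 and from 71656406 to 71659627 with score 379.88, and each was found in both mock lists. Of the 6 KO-only domains with the highest scores, 2 held an H3K4me3 peak in KO doxorubicin and 3 in WT doxorubicin. Over all KO-only domains the shares were 4.96% with KO and 5.89% with WT doxorubicin peaks.

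The 6 WT-only domains with the highest scores spanned a narrow range of score, 375.74 to 390.96, and of length, 3.02 to 4.32 kb. The first lay on chromosome 4 from 135830286 to 135833301 (390.96) and the second on chromosome 13 from 53764858 to 53768109 (389.68). The first had 1.008 kb in KO mock and none in WT mock, and the second had 1.08 kb in KO mock and 1.42 kb in WT mock. None of the 6 held an H3K4me3 peak in either doxorubicin list. Over all WT-only domains the shares were also low, 2.18% with KO and 2.72% with WT doxorubicin peaks. Long WT-only domains scored low: the 6 longest, of 8.66 to 9.95 kb, had top scores of 134.73 to 230.82. The longest, on chromosome 9 from 56543025 to 56552976, ended 275 bp from a KO domain.

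The regions present in both lists were mostly 1 domain against 1 domain. More of them were covered to a greater length in WT than in KO. Overlapping domains of both lists formed 6505 shared regions, of 13379 regions in all, and 6008 of them (92.4%) held 1 domain of each list. KO covered more bases than WT in 2625 shared regions, WT covered more in 3878 (59.6%), and 2 were equal. The median log2 ratio of KO over WT covered length was -0.11, with quartiles of -0.49 and 0.23. KO covered less than WT by a factor of 2 or more in 618 regions, and more by that factor in 368. The bases in peaks of both lists came to 25.2 Mb, which was 70.2% of the KO and 64.7% of the WT covered length.

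The lists lay closer to each other in the longer regions. Below a mean covered length of 2 kb the median log2 ratio of KO over WT was -0.17 over 1920 regions, with quartiles of -0.68 and 0.36. From 2 to under 5 kb it was -0.10 (2761 regions), from 5 to under 10 kb -0.11 (1148) and from 10 to under 20 kb -0.08 (459). In the 217 regions of 20 kb or more it was -0.03, with quartiles of -0.16 and 0.05. The share of regions with 1 domain in each list ran the other way, from 100% in the shortest class to 58.99% in the longest. By the joining rule a split needs a break of 3 kb or more. Short regions can therefore hardly be split, and the rule itself favours this order.

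**Figure D2:**
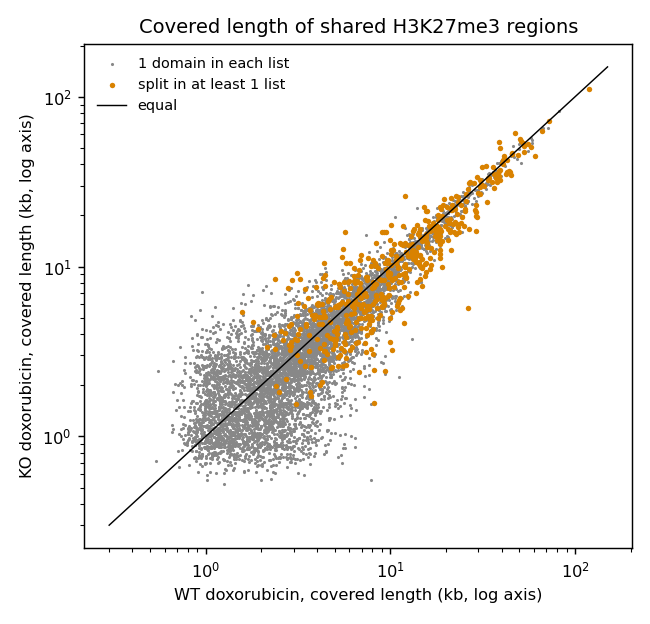
Covered length of each of the 6505 shared H3K27me3 regions in KO doxorubicin (vertical axis, kb, log scale) against WT doxorubicin (horizontal axis, kb, log scale), with regions of 1 domain in each list in grey and those split in at least 1 list in orange. The cloud narrows around the line of equality with length. Split regions lie mostly among the longer ones, which the 3 kb joining rule itself favours.

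Summed over the genome, the KO minus WT difference in covered length was -3.04 Mb, a ratio of 0.922. Shared regions made up -2.30 Mb of this and domains found in 1 list only -0.745 Mb. In mock cells the KO list covered 36.3 Mb and the WT list 48.0 Mb, a ratio of 0.756, and WT covered more in 78.1% of the 6587 shared regions, with a median log2 ratio of -0.35. Whether the ratio differed between treatments was not tested. By chromosome, KO covered less than WT on 17 of 20 after doxorubicin, the lowest log2 ratio being -0.20, and on 20 of 20 in mock cells. Chromosomes 13, 14 and X were the exceptions after doxorubicin, with log2 ratios of 0.02, 0.05 and 0.12. Chromosome X held only 47 KO and 45 WT domains.

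Domain edges were placed differently in most pairs. Over the 6008 regions of 1 domain in each list, the KO and WT edges lay a median of 546 bp apart, with quartiles of 205 and 1266 bp. The median KO minus WT domain length was -214 bp. The KO domain lay within the WT domain in 1785 regions, the WT domain within the KO domain in 1096, and in 3127 both edges of the KO domain were shifted the same way along the chromosome.

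Splitting was uncommon, and it was more frequent for WT domains. A single KO domain overlapped 2 or more WT domains in 217 cases, 2.13% of the KO domains, and a single WT domain overlapped 2 or more KO domains in 309 cases, 3.0% of the WT domains. Among domains of 10 kb or more the shares were 155 of 869 KO domains (17.8%) and 231 of 992 WT domains (23.3%). In mock cells 159 KO domains and 458 WT domains were split in the other list. The split KO domains had a median length of 14250 bp and the split WT domains one of 14640 bp, and 189 of the KO and 277 of the WT domains fell into 2 pieces.

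Most breaks were only a little wider than the joining distance. Of the 253 breaks that the WT list made in KO domains, 187 (73.9%) were under 5 kb, with a median of 3913 bp, and of the 342 breaks that the KO list made in WT domains, 274 (80.1%) were under 5 kb, with a median of 3870 bp. The stretches that lay in these breaks were themselves only partly covered by peaks in the list without the break, by a median of 45.4% in KO and 46.5% in WT. The peaks there had median scores of 158.9 in KO and 174.9 in WT. The longest breaks were 12477 bp in a KO domain and 14192 bp in a WT domain.

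The Hox clusters, which encode the homeobox factors that set position along the body axis, held long domains in both lists, and the 4 clusters differed from one another. Each cluster region was taken as the union of overlapping domains of the 4 H3K27me3 lists. At HoxA, on chromosome 6 from 52165318 to 52231863, covered length was 55.4 kb in KO and 56.7 kb in WT after doxorubicin, in 2 domains each, and 51.8 kb in KO mock and 47.9 kb in WT mock. HoxD, on chromosome 2 from 74480481 to 74609041, had 101.7 kb in KO and 110.5 kb in WT after doxorubicin, against 80.3 kb in KO mock and 122.9 kb in WT mock. Its first domain was alike in both doxorubicin lists, 71.9 kb in KO and 72.6 kb in WT. Its second stretch was split in KO into domains of 32.1 and 11.2 kb and was a single domain of 51.4 kb in WT.

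Among the 4 clusters, HoxB had the largest difference in covered length after doxorubicin. On chromosome 11 from 96106416 to 96245061, KO covered 64.8 kb in 7 domains and WT 95.6 kb in 4 domains after doxorubicin. The central WT domain of 71.5 kb, from 96123453 to 96194928, met 3 KO domains of 43.8, 16.6 and 1.10 kb. Both lists held peaks over most of that stretch, but KO peaks were shorter, 23 of them, against 18 in WT, and covered 44.1 kb against 60.5 kb in WT. In mock cells the order was reversed, with 70.8 kb in KO and 0 kb in WT over the same stretch. The WT mock list was empty there between flanking domains, while the KO mock list was covered nearly without a break. Running peak numbers without a peak made up 47.2% of the KO mock and 39.0% of the WT mock list, and whether a peak of this stretch is among them was not tested. H3K4me3 peaks numbered 12 in KO and 12 in WT in this stretch after doxorubicin.

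At HoxC, on chromosome 15 from 102724822 to 102874089, the main domain was almost the same in both lists, 84.9 kb with 82.4 kb in peaks in KO and 83.5 kb with 82.0 kb in peaks in WT. Downstream in coordinate, KO had 1 further domain, of 1.96 kb, and WT had 5. The 4 WT domains with no KO counterpart were 7.82, 7.18, 1.39 and 3.23 kb long, with top scores of 132.99 to 200.6. In mock cells a single domain spanned the cluster, 147.6 kb long in KO and 147.9 kb in WT. Over the whole cluster the covered length was 84.3 kb in KO and 99.2 kb in WT after doxorubicin, and 132.6 kb in KO mock and 144.2 kb in WT mock.

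**Figure D3:**
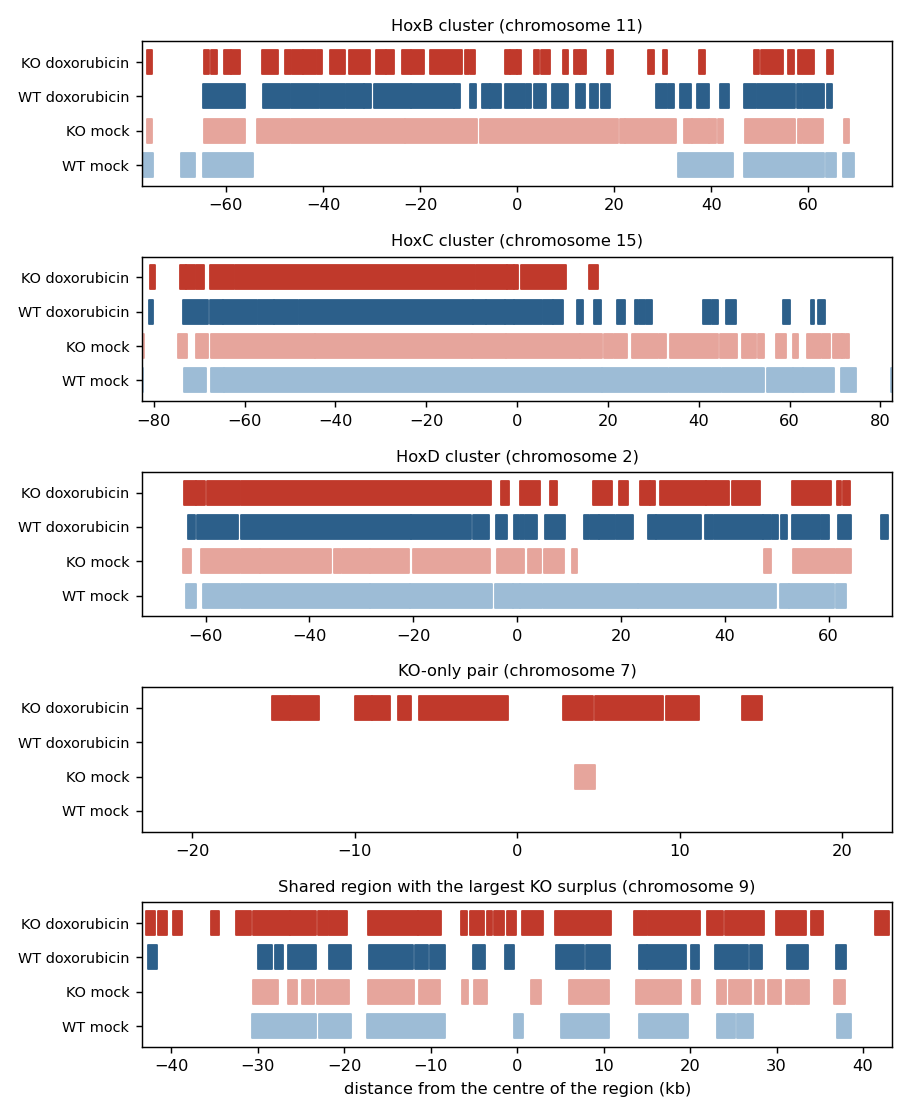
H3K27me3 peaks (boxes) in KO doxorubicin, WT doxorubicin, KO mock and WT mock, from top to bottom in each panel, against the distance from the centre of the region (kb), for 3 Hox clusters, the KO-only pair on chromosome 7 and the shared region on chromosome 9 with the largest KO surplus. HoxB peaks are short in KO doxorubicin and absent over the centre in WT mock, and the KO-only pair has no peak in either WT list.

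Other developmental loci were covered in both lists, and the KO minus WT difference ran from -13.4 kb at Pax2 to 0.034 kb at Foxb2. The longest shared region, 133.1 kb on chromosome 7 from 86633724 to 86766810, holds Mir9-3, which encodes the neuronal microRNA miR-9, and was covered over 111.0 kb in KO and 119.0 kb in WT. It was cut into 2 domains in each list, at different places, 93.5 and 34.3 kb in KO and 72.6 and 53.7 kb in WT. At Pax2, which encodes a paired-box factor of kidney and hindbrain, covered length was 97.6 kb in KO and 111.0 kb in WT, on chromosome 19 from 44786050 to 44920029. Sox14 had 15.5 kb in KO and 18.8 kb in WT, on chromosome 9 from 99762331 to 99781433. Foxb2 had 16.7 kb in KO and 16.6 kb in WT, on chromosome 19 from 16934908 to 16957945. H3K4me3 peaks in these regions numbered 0 in KO and 4 in WT at Mir9-3, 3 in KO and 5 in WT at Pax2, 0 in KO and 1 in WT at Sox14, and 0 in KO and 2 in WT at Foxb2, after doxorubicin. In mock cells they numbered 0 in KO and 2 in WT at Mir9-3, and 3 in KO and 5 in WT at Pax2. At Sox14 both mock lists had 0, and at Foxb2 both had 1.

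The 2625 shared regions that KO covered to a greater length included 4 described here from among the largest surpluses. The largest surplus lay on chromosome 9 from 47436188 to 47506995, with 54.5 kb in 1 KO domain and 39.0 kb in 4 WT domains. Its neighbour on the same chromosome, from 47321435 to 47397391, had 60.9 kb in 1 KO domain and 47.5 kb in 5 WT domains. A region on chromosome 1 from 63940898 to 63986581 had 26.2 kb in 1 KO domain and 11.96 kb in 4 WT domains, and mock cells had 6.72 kb in KO and 7.81 kb in WT there. On chromosome 6 from 72169226 to 72190271, KO had 16.0 kb and WT 5.68 kb after doxorubicin, against 20.1 kb in KO mock and 17.98 kb in WT mock.

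The largest deficits of KO were similar in size. On chromosome 11 from 84380254 to 84423711, KO had 5.69 kb in 3 domains and WT 26.3 kb in 1 domain after doxorubicin, while mock cells had 17.8 kb in KO and 18.7 kb in WT. On chromosome 4 from 154402342 to 154437211, KO had 16.2 kb in 3 domains and WT 28.9 kb in 1. On chromosome 8 from 125221722 to 125283553, a single domain in each list had 40.8 kb in KO and 50.8 kb in WT. The 6 largest surpluses ranged from 9.05 to 15.6 kb and the 6 largest deficits, as KO minus WT, from -20.6 to -9.84 kb.

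The stretch upstream of Cdkn1a, beside which lincRNA-p21 is transcribed, held a compact domain in all 4 lists. On chromosome 17 from 29194004 to 29197735, covered length was 3.47 kb in KO and 3.21 kb in WT after doxorubicin, and 3.69 kb in KO mock and 3.49 kb in WT mock. The authors' scores of its peak in each list were 2546.8 in KO and 595.76 in WT after doxorubicin, and 3100 in KO mock and 1002.21 in WT mock. Scores are on each list's own footing and are given as recorded, with no comparison between lists. Further along, from 29208566 to 29216211, KO had a single peak of 0.47 kb with score 99.46 and WT had none after doxorubicin, while mock cells had 4.48 kb in KO and 2.44 kb in WT. All 4 H3K4me3 lists, doxorubicin and mock, held a peak in the first stretch and a peak in the second. Whether either stretch overlaps lincRNA-p21 itself, or bases altered in KO, was not checked, so values there may reflect the allele.

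Domains found in 1 doxorubicin list were often absent from both mock lists, and the same held in reverse. Of the mock domains found in 1 list only, 54.5% of the KO-only and 55.4% of the WT-only overlapped no doxorubicin domain. Domains of 1 list were also shorter and lower in score, as given above, and the part of this was not tested. Of the 3346 KO-only domains, 1830 (54.7%) overlapped no mock domain, 532 (15.9%) overlapped domains of both mock lists, 424 (12.7%) overlapped KO mock alone and 560 (16.7%) WT mock alone. Of the 3528 WT-only domains, 1813 (51.4%) overlapped no mock domain, 632 (17.9%) both, 362 (10.3%) KO mock alone and 721 (20.4%) WT mock alone. Among the domains shared by both doxorubicin lists, 77.6% of those in the KO list and 77.5% of those in the WT list overlapped both mock lists. Neither mock list was overlapped by 7.87% of the shared domains in the KO list and 8.23% of those in the WT list. A KO-only domain was found in WT mock alone more often than in KO mock alone, with 36.3 Mb covered in KO mock and 48.0 Mb in WT mock. The part of that length in the result was not tested.

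**Figure D4:**
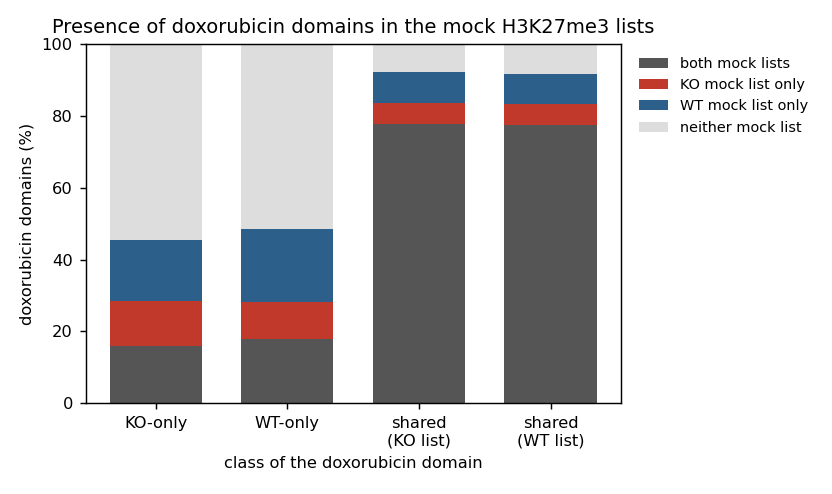
Share of doxorubicin H3K27me3 domains (%) that overlapped domains of both mock lists, of KO mock only, of WT mock only or of neither, for KO-only, WT-only and shared domains. Neither mock list held 54.7% of the KO-only and 51.4% of the WT-only domains, while both held 77.6% of the shared KO and 77.5% of the shared WT domains.

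H3K4me3, a mark the choice of domains did not use, was more frequent at shared domains than at domains of 1 list. Of the KO-only domains, 4.96% held an H3K4me3 peak of KO doxorubicin and 5.89% one of WT doxorubicin. WT-only domains had shares of 2.18% with KO peaks and 2.72% with WT peaks. Shared domains of the KO list had 21.9% with KO peaks and 32.7% with WT peaks, and those of the WT list 21.2% with KO peaks and 32.1% with WT peaks. In the KO list, 757 shared domains held H3K4me3 in WT and not in KO, 19 in KO and not in WT, and 1482 in both. The H3K4me3 lists differed less in size, with 15095 peaks in KO doxorubicin and 16477 in WT doxorubicin, and their part in this was not tested. In mock cells the shared domains of the KO list had 22.5% with KO peaks and 28.4% with WT peaks. Shared domains were also longer, as given above, and the part of length in the higher shares was not tested.

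**Figure D5:**
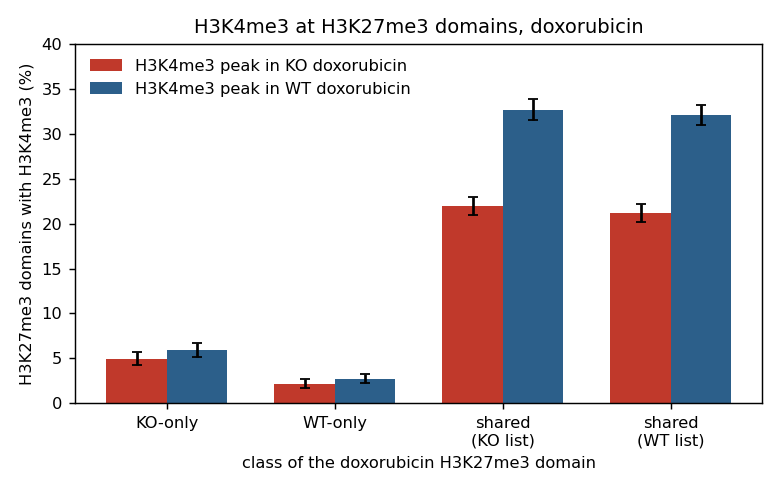
Share of doxorubicin H3K27me3 domains (%) that overlapped an H3K4me3 peak of KO doxorubicin (red) or of WT doxorubicin (blue), by class of domain, with exact 95% binomial bars that cover counting error only. Shared domains of the KO list had 21.9% with KO peaks and 32.7% with WT peaks, and KO-only domains had 4.96% with KO peaks and 5.89% with WT peaks.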

How the data were processed

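ChIP-seq was done with an H3K27me3 antibody (abcam ab6002) on KO and WT fibroblasts, and the deposited peak lists of 8 ChIP libraries were used. The submitters' processing notes name Bowtie 0.12.7 and MACS 1.4.2, with build mm9 and no settings. The deposited score of a peak is minus 10 times the log10 of its p-value, per the file headers. No score was under 80, values pile up at 3100, and 46.9% of the running peak numbers in the KO doxorubicin list and 46.0% in the WT doxorubicin list had no peak, so the lists are subsets of the peaks called. Whether a pooled or a matched input was used as the background is not given in the sources used here.

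Peaks less than 3 kb apart were joined into domains in Python 3.11.15 with pandas 2.3.3 and numpy 2.4.6, and domains of both lists with 1 bp or more in common were taken as shared. Covered length is the sum of peak lengths. Shared regions are overlapping domains of both lists joined together. A split domain overlaps 2 or more domains of the other list. Intervals are exact (Clopper-Pearson) at 95%, from scipy 1.17.1. The joining and splitting steps were tested on simulated data. Coordinates are printed counting from 1, on the assumption that deposited starts count from 0.

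Regions were named by rule: the 6 KO-only and 6 WT-only domains of highest score and of greatest length, the 6 split into most pieces, the 6 shared regions of largest KO surplus and deficit, and the 6 longest. The domains, rules and lists were chosen with earlier results of these data known. The Hox, Pax2, Sox14, Foxb2, Mir9-3 and Cdkn1a loci stand outside the rule. A planned use of gene lists and cell type markers needed an mm9 annotation and is not given here, so the fibroblast label was not checked. Input libraries were not analysed here. With 1 library a condition, no p-value was computed, and alternatives changed the joining distance, score minimum, list length, domain length and overlap.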

Additional observations from a re-analysis of the deposited data

Results flagged for a closer look

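Several regions had a KO minus WT difference in covered length of one sign after doxorubicin and of the other sign in mock cells, each from 1 library a condition, and the difference between treatments was not tested. The sign after doxorubicin is fixed by the choice for domains found in 1 list only, and for shared regions chosen for their largest KO surplus or deficit. Choosing domains for the number of pieces in the other list also favours one sign, so an opposite sign in mock cells at these regions is a description only. Among domains of 1 list, the KO-only domain on chromosome 3 from 67318711 to 67322824 had 3.76 kb after doxorubicin and -1.57 kb in mock cells. The KO-only domain on chromosome 6 from 86746296 to 86749752 had 3.46 kb and -2.31 kb in mock cells. The WT-only domain on chromosome 4 from 135830286 to 135833301 had -3.02 kb after doxorubicin and 1.008 kb in mock cells.

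HoxB gave the widest contrast, with -30.7 kb over the cluster after doxorubicin and 72.0 kb in mock cells. Its central WT domain, on chromosome 11 from 96123453 to 96194928, had -16.35 kb after doxorubicin and 70.8 kb in mock cells. The shared region around it, chosen for its KO deficit, from 96123262 to 96195429, had -15.7 kb and 71.5 kb in mock cells. These HoxB mock values rest on a stretch without peaks in the WT mock list. In that list a long peak at HoxC scored only 100.04, with a score minimum of 80. Whether a long HoxB peak was left out of the WT mock list was not tested. HoxA had -1.33 kb after doxorubicin and 3.89 kb in mock cells, Foxb2 had 0.034 kb and -5.76 kb, and the main HoxC region on chromosome 15 from 102725322 to 102810237 had 0.388 kb and -0.756 kb.

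The others were KO domains chosen for their split in WT, and shared regions chosen for their KO surplus. On chromosome 13 the KO domain from 99306904 to 99365460 had 12.1 kb after doxorubicin and -2.73 kb in mock cells, and the shared region from 99291318 to 99365460 had 10.8 kb and -4.45 kb. On chromosome 1 the KO domain from 63940898 to 63982727 had 17.2 kb and -1.09 kb, and the shared region to 63986581 had 14.2 kb and -1.09 kb. On chromosome 18 the KO domain from 36328218 to 36381957 had 6.02 kb and -0.931 kb. By whole chromosome, the log2 ratio of KO over WT covered length was 0.0196 on 13, 0.0512 on 14 and 0.12 on X after doxorubicin, and -0.28, -0.37 and -0.27 on the same chromosomes in mock cells.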

How the results depend on the processing

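No paired analysis was possible because each condition had 1 library and the labels give no replicate numbers. Under other settings 45 values stayed within the limits set for them and 25 moved beyond. Among these values, only the differences between KO and WT could change direction, and none of them did. The KO list covered less than the WT list, more WT than KO domains were found in 1 list only, and more WT than KO domains were split, under each setting run for them. For covered length, a score minimum of 100 gave a KO minus WT difference of -2.765 Mb. The other setting run for it kept the 17517 highest-scoring peaks of each list. It removed peaks from the KO list only, so a lower KO value was fixed beforehand. For the same reason the number of WT-only domains could only stay or rise under this setting. WT-only domains went from 3528 to 3580 and KO-only domains from 3346 to 3254, a direction that the setting favoured beforehand. The KO-only share ran from 20.3% to 43.3% and the WT-only share from 25.3% to 47.5%.

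Without joining, KO had 17828 and WT 17517 peaks, of which 5746 in KO and 6191 in WT were in 1 list only, 1712 KO and 2245 WT peaks were split, and 228 KO and 286 WT peaks reached 10 kb. With domains of at least 2 kb, 5080 KO and 5368 WT domains were left, 1030 KO-only and 1359 WT-only, with 113 KO and 152 WT domains split. Joining under 1 kb gave 444 split KO and 564 split WT domains, and 536 KO and 615 WT domains of 10 kb or more. As differences, chosen after seeing the data, KO-only minus WT-only domains numbered -182 as reported, -407 when joined under 1 kb and -445 without joining. The difference was -329 at 2 kb or more and -477 when 50% of the domain had to overlap. With the 17517 highest-scoring peaks of each list it was -326, under a setting that removed KO peaks only and so favoured a lower value. Split WT minus split KO domains numbered 92 as reported, 533 without joining and 39 at 2 kb or more. Counts of split and single-list domains thus depend on the joining distance, and the causes of the other shifts were not tested. Single-list shares moved less with joining, from 31.1% to 34.4% in KO and from 32.6% to 36.9% in WT. The lowest shares came with domains of at least 2 kb and the highest when 50% of the domain had to overlap. Unknown depth and a score minimum of 80 limit what the absence of a domain from a list means.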
